A study of Mus musculus with 28 samples.

Results

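Multipotent progenitors of the MPP3 type were compared with long-term haematopoietic stem cells (LT-HSC) that had been taken from the same young mice. The comparison used 8 of the 28 libraries of the series, 4 of MPP3 and 4 of LT-HSC, chosen by the group given in their names, with every gene of the count table. Donor marrow came from young Mx1-Cre mice. Mx1-Cre is a recombinase transgene under an interferon-inducible promoter, and marrow carrying it without a Dnmt3a mutation was the control. It had been transplanted into young recipients that carry CD45.1, a form of a leukocyte surface protein by which recipient cells can be told from donor cells, and the cells were sorted again 4 months later. All 8 libraries are labelled as bone marrow of strain C57BL/6. Each LT-HSC library and each MPP3 library came from 1 recipient, and the same 4 recipients, numbered 126, 127, 129 and 130 in the titles, gave both cell types. They are replicates 1, 2, 3 and 4 below, and lists of 4 values follow that order. The sources used here give no sorting gate, no sex, no age in weeks and no inducing agent. The cells that MPP3 and LT-HSC stood for were therefore judged from marker genes. 2 other pairs of groups served as a comparison: aged recipients of the same kind of control marrow (4 MPP3 and 3 LT-HSC libraries) and aged recipients of Dnmt3a-mutant marrow (4 and 4 libraries). The aged LT-HSC libraries name 2 recipients each.

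LT-HSC sit at the top of the blood lineage tree. They divide rarely, and they are the cells that rebuild blood for life after a transplant. MPP3 are short-lived offspring of LT-HSC that no longer self-renew for long and that lean toward granulocytes and monocytes. In flow cytometry, LT-HSC carry CD150 (the product of Slamf1) and lack CD48, MPP3 carry CD48 and lack CD150, and both lack or hold little of FLT3, which marks the lymphoid-leaning MPP4. Their programmes are set by transcription factors such as HLF, MEIS1 and GATA2 in stem cells, and PU.1, C/EBP proteins, GFI1 and IRF8 along the myeloid path. The first sign of that path is a set of proteases and peroxidase made for the primary (azurophil) granule at the promyelocyte step, well before the secondary granule proteins of maturing neutrophils.

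Total counts per library ran from 6130169 to 8447719, so that 3 counts in a library were worth 0.313 to 0.562 CPM, the unit used below for counts scaled to a common library size. CPM here are normalised between libraries by the TMM method, and a gene at 0 CPM may be present below that depth. Mitochondrial genes took 18.9% ± 4.98 (SD, n = 4) of counts in LT-HSC and 24.5% ± 2.96 in MPP3. The first principal component, 31.4% of the variance, separated the cell types, and on the second (15.8%) LT-HSC replicate 3 stood apart from the other libraries. Library and sheet numbers in the column names point to 2 sequencing pools of 14 libraries. By that reading LT-HSC replicates 1 and 2 were in pool 1, and LT-HSC replicates 3 and 4 with all 4 MPP3 libraries in pool 2, so that cell type and pool overlap in part. Because whole populations were sequenced, fewer cells of a type and less RNA per cell cannot be told apart.

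The marker genes Slamf1 and Cd48 were ordered as the cell type labels imply. Slamf1, which encodes CD150, was at 66.4, 95.4, 48.7 and 62.6 CPM in the LT-HSC libraries and at 0, 2.33, 0 and 11.7 CPM in the MPP3 libraries. Cd48, which encodes a ligand of the same receptor family, was at 0, 10.6, 0 and 0 CPM in LT-HSC and at 36.7, 62.6, 80.5 and 20.5 CPM in MPP3. For each gene the 4 libraries of one cell type lay above the 4 of the other. Neither passed the paired test over all genes: the log2 change was -6.19 for Slamf1 and 7.84 ± 1.84 (SE) for Cd48, with edgeR adjusted p of 0.104 and 0.0958. The 2 genes are neighbours on mouse chromosome 1, at chr1:171682009-171705258 (Cd48, ENSMUSG00000015355) and chr1:171767127-171801184 (Slamf1, ENSMUSG00000015316) in build GRCm38, 61869 bases apart. Flt3, the marker of MPP4, was at 44.1, 86, 41.9 and 67.8 CPM in LT-HSC and at 54, 158, 90.8 and 100.2 CPM in MPP3. Its values overlapped between the groups, and the log2 change was 0.71 ± 0.39.

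Other surface genes filled in the picture. Kit, the receptor of stem cell factor, was present in all 8 libraries, at 608, 672, 1209 and 693 CPM in LT-HSC and at 475, 405, 356 and 302 CPM in MPP3, with a log2 change of -1.01 ± 0.27 and an edgeR adjusted p of 0.125. Fcgr3, an Fc gamma receptor of myeloid cells that is part of the CD16/32 stain, was at 0 CPM in all 4 LT-HSC libraries and at 116, 19, 20.6 and 39.4 CPM in MPP3. It was at least 122-fold higher in MPP3 when 3 counts per LT-HSC library are taken as the floor, and it was the only 1 of 13 surface genes on this list that passed the test (edgeR adjusted p = 0.0277; 1.37% of all tested genes passed). It did not pass without recipient 1, 2 or 4. Fcgr2b, the inhibitory Fc gamma receptor, was at 0.442, 0, 0.162 and 0.629 CPM in LT-HSC and at 12.9, 28.9, 8.61 and 26.6 CPM in MPP3 (edgeR adjusted p = 0.107). Il7r, the interleukin-7 receptor of lymphoid progenitors, had no count in LT-HSC and 2.46, 18.5, 29.4 and 25.6 CPM in MPP3 (adjusted p = 0.093). Cd34 was at 63, 136, 51.6 and 112 CPM in LT-HSC and at 202, 197, 228 and 167 CPM in MPP3. Procr, which encodes the stem cell marker EPCR, was at 55.7, 26.8, 29 and 2.52 CPM in LT-HSC and at 3.61, 0.123, 0.562 and 0.139 CPM in MPP3, and the lowest LT-HSC value, in replicate 4, lay under the highest MPP3 value. Ly6a, which encodes Sca-1, was at 71.5, 15.6, 26.7 and 36.3 CPM in LT-HSC and at 5.92, 0.491, 32.6 and 7.1 CPM in MPP3, with overlapping values. Cd27, carried by both populations, had a log2 change of 0.35 ± 0.46.

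**Figure D1:**
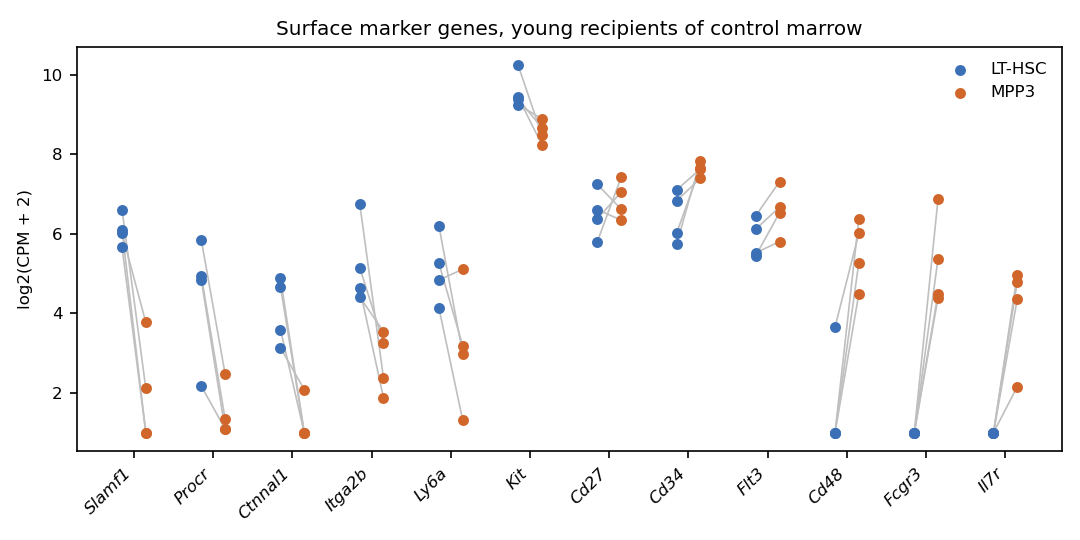
Levels of 12 surface marker genes as log2(CPM + 2) in the 4 LT-HSC (blue) and 4 MPP3 (orange) libraries, with grey lines joining the libraries of 1 recipient. Slamf1 is higher in every LT-HSC library and Cd48 and Fcgr3 in every MPP3 library, while Flt3 and Cd27 overlap.

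Of 11938 genes tested, 163 changed between the cell types (1.37%), by edgeR's quasi-likelihood test with the recipient as a block and a Benjamini-Hochberg adjusted p under 0.05. MPP3 had 97 of them higher (0.813% of the genes tested) and 66 lower (0.553%). Among all tested genes 1272 had values that did not overlap between the groups (10.7%), 635 of them higher in MPP3 (5.32%) and 637 lower (5.34%). Of the called genes, 94 of the 97 and 65 of the 66 were also free of overlap. The shares over all tested genes are those to set beside the counts by list below. The log2 change was above 0 for 5970 genes (50%), and the unadjusted p was under 0.05 for 1475 (12.4%). Scaling by library totals alone moved the median log2 change of all genes by -0.171 and gave 64 genes higher and 68 lower, 48.5% higher in place of 59.5%.

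The number of calls depended on the model. Without the recipient block 305 genes passed (2.55%), 149 of the 163 among them. With the 4 MPP3 and the 2 LT-HSC libraries of pool 2 alone, 92 passed (0.708%), and with pool as a term beside the block 16 did (0.134%). Leaving out recipient 1, 2, 3 or 4 gave 49, 38, 61 (0.494%) or 52 calls, and DESeq2 gave 1262 (10.6%). All 163 genes kept their direction in each of these fits.

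**Figure D2:**
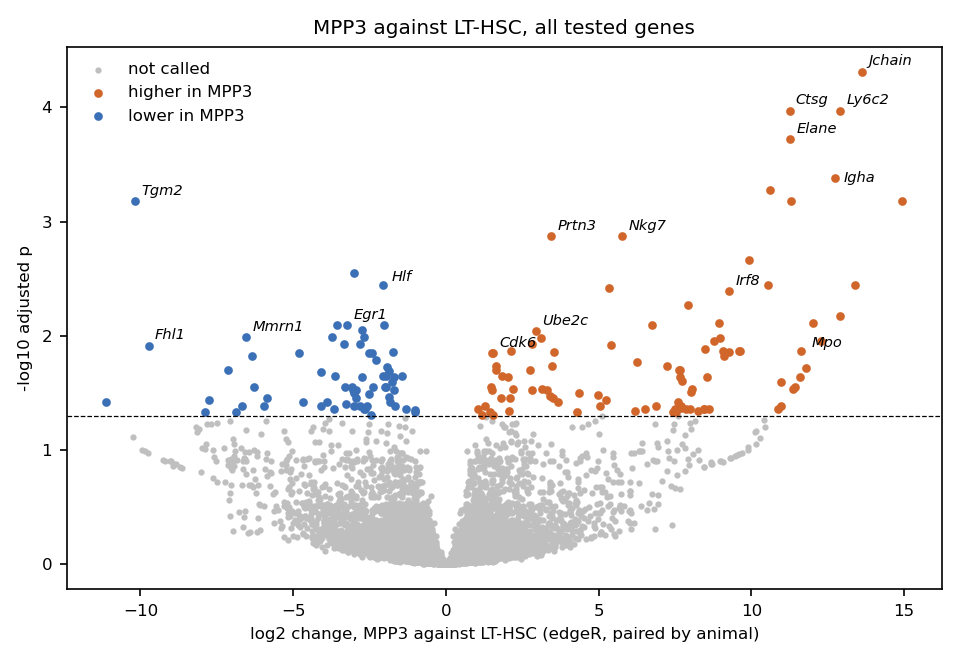
Log2 change (MPP3 against LT-HSC, x axis) and -log10 adjusted p (y axis) of the 11938 tested genes, with the 97 genes higher in MPP3 in orange and the 66 lower in blue; the dashed line is the threshold of 0.05. Plasma cell, granule and Ly6c genes lie at the upper right, and Tgm2 and Hlf at the upper left.

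Among the 23 gene lists, that of primary granule genes had the most members higher in MPP3. The lists and their members were chosen with earlier results of these data known, so the order of the lists is a description and not a test. Medians by list cover tested members only, and a gene could be tested through its counts in 1 cell type alone. Of 18 tested members of a list of 20, 13 rose, none fell, and the median log2 change was 6.59, beside 8.72e-05 over all tested genes. The list also holds genes of the same cell stage that are not granule proteins, such as Ms4a3, Clec12a and Calr, so these counts are not of granule proteins alone. Elastase, proteinase 3 and cathepsin G are the serine proteases of this granule, and myeloperoxidase makes its oxidants. Ctsg (cathepsin G, ENSMUSG00000040314, chr14:56099881-56102574) was at 0, 0.104, 0.162 and 0.315 CPM in the LT-HSC libraries and at 449.7, 299.8, 359 and 345 CPM in the MPP3 libraries, a log2 rise of 11.25 ± 0.63 (adjusted p = 0.000107 by edgeR). Elane (neutrophil elastase, ENSMUSG00000020125, chr10:79886247-79888215) was at 0.221, 0.418, 1.46 and 3.3 CPM in LT-HSC and at 3695, 1776, 2346 and 2824 CPM in MPP3, with a log2 change of 11.27 ± 0.70 (adjusted p = 0.000191). For both genes every MPP3 value lay far above every LT-HSC value. Prtn3 (proteinase 3, ENSMUSG00000057729, chr10:79874476-79883174) lies 3073 bases from Elane on the same strand and differed in its starting level: it was already at 24.5, 29.5, 42.9 and 45.8 CPM in LT-HSC and at 349, 255, 377 and 613 CPM in MPP3, a rise of 11-fold (log2 change 3.45 ± 0.30, adjusted p = 0.00135). Mpo (myeloperoxidase, ENSMUSG00000009350, chr11:87793581-87804413), singled out after its values were seen, was at 0.553, 0.731, 34.3 and 22.5 CPM in LT-HSC and at 21058, 13630.0, 16517 and 20706 CPM in MPP3 (log2 change 11.63 ± 1.40, adjusted p = 0.0137). Its higher LT-HSC values were those of replicates 3 and 4, in the same inferred pool as the MPP3 libraries, and these still lay far under every MPP3 value. Gm11505, an antisense transcript that lies within Mpo on the other strand, had 5909, 3860.4, 4625 and 5242 CPM in MPP3, and since the strand setting of the counting is not given in the sources used here, its reads cannot be told from those of Mpo.

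The windows around the start sites of these 4 granule genes and of 2 stem cell genes are shown as windows that held a motif match, from lists with many members changed in 1 direction. The windows of Ms4a3 and Gata2, also called, held none. Each runs from 250 bases before to 50 after the start of a RefSeq transcript on GRCm38.p6, read 5′ to 3′ on the gene's strand. Capitals mark matches on either strand to GAGGAAG (the core of a PU.1-type ETS site), TGTGGT (RUNX), AGATAA (of GATA factors) or TTGCGC (the inner part of a C/EBP site). The windows lie at chr11:87793534-87793833 (plus strand) for Mpo, chr10:79886062-79886361 (plus) for Elane, chr10:79879417-79879716 (plus) for Prtn3, chr14:56102525-56102824 (minus) for Ctsg, chr11:19018920-19019219 (minus) for Meis1 and chr11:90390868-90391167 (minus) for Hlf.
Mpo: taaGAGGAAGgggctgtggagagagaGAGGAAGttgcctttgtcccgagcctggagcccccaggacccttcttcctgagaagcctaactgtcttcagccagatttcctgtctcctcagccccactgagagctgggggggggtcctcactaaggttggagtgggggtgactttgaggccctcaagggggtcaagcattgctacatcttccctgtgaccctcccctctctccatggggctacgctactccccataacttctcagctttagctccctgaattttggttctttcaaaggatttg
Elane: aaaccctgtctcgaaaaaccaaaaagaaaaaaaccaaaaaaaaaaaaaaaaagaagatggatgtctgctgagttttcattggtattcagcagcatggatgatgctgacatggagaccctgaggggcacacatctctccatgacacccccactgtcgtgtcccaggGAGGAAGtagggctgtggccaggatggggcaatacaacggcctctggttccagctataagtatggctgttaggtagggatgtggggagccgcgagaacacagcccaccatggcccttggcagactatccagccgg
Prtn3: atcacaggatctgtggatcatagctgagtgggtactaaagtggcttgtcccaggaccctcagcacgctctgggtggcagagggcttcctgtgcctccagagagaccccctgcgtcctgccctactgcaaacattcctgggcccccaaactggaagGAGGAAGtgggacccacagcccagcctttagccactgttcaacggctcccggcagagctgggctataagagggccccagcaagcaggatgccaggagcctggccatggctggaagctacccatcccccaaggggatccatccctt
Ctsg: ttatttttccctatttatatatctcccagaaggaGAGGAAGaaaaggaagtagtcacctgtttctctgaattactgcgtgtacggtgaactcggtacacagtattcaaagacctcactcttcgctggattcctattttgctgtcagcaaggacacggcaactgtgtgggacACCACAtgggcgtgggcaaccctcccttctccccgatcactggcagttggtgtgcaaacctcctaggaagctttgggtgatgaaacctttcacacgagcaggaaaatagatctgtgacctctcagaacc
Meis1: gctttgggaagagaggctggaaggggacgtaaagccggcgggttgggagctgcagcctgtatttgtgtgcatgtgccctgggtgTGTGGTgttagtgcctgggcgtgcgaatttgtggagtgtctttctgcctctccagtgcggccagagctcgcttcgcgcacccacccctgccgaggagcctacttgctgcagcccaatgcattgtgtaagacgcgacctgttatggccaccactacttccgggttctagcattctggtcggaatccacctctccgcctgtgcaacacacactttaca
Hlf: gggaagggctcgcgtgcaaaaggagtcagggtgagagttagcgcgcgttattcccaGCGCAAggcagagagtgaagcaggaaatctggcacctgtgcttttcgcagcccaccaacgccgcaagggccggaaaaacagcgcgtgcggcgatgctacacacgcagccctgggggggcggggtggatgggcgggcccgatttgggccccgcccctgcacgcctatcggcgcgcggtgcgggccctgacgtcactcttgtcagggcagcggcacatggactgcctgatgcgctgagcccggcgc
Among the 13 windows found for 11 of the 13 members of the primary granule list that rose, GAGGAAG stood in 5 (38.5%), those of Clec12a, Ctsg, Elane, Mpo and Prtn3. It stood in 13.6% of all 32851 windows of this kind. TGTGGT stood in 5 of the same 13 (38.5%), against 16.8% of all windows. TTGCGC stood in 1 (7.69%, against 6.49%), that of Clec12a, where it was part of the longer TTGCGCAAT, and AGATAA in 0 (against 11.2%). For the LT-HSC identity genes that fell, 15 windows of 9 genes held GAGGAAG in 0, TGTGGT in 2 (Fhl1 and Meis1; 13.3%), AGATAA in 2 (Aldh1a1 and Erg; 13.3%) and TTGCGC in 1 (Hlf; 6.67%). A match describes the letters in a window only, and these counts are small.

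Further genes of the same granule or cell stage rose as well. Ms4a3, a membrane protein of granulocyte and monocyte progenitors, had no count in LT-HSC and 71.6, 55.9, 108 and 122 CPM in MPP3, at least 223-fold higher (edgeR adjusted p = 0.0112). Nkg7, a granule membrane protein, went from 11.5, 2.82, 2.1 and 6.45 CPM in LT-HSC to 371, 199.6, 286 and 210.4 CPM in MPP3 (log2 change 5.77 ± 0.50, adjusted p = 0.00135). Clec12a, an inhibitory lectin receptor of myeloid cells, was at 0.663, 0.104, 0.162 and 8.65 CPM in LT-HSC and at 633, 190.4, 210.4 and 186 CPM in MPP3, where replicate 1 stood above the others (log2 change 8.47 ± 1.15, adjusted p = 0.0131). The other called members were Plac8, Igsf6, Calr, Hp, Prss57 and Gstm1, with log2 changes from 1.53 (Gstm1) to 8.54 (Hp). Prss57 overlaps Fstl3 on the opposite strand, which also rose, and the 2 cannot be told apart without strand. Srgn, Cst7, Ctsc, Serpinb1a and Lyz2 were tested and not called. Azu1 had no entry in the name table, and Bpi had no count in the 8 libraries. Without 1 recipient, 6 or 7 members of the list passed, and 8 did in pool 2 alone. With pool as a term beside the block 5 passed.

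**Figure D3:**
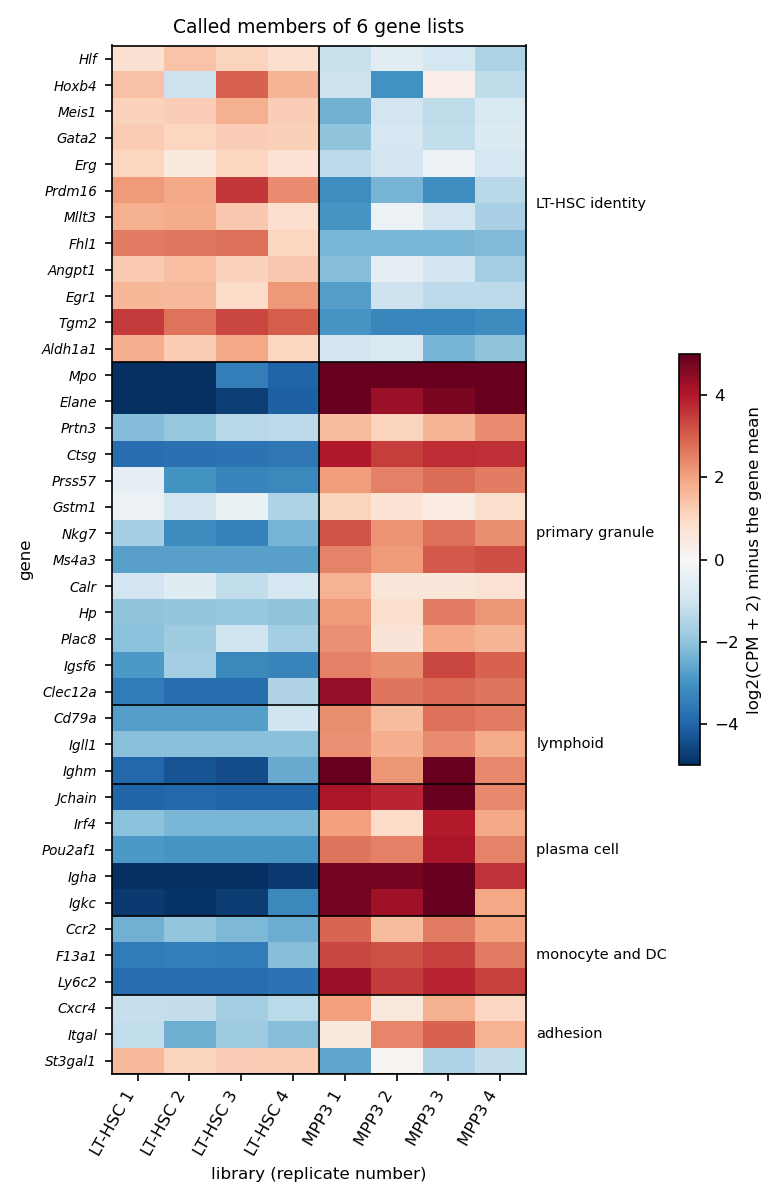
Called members of 6 gene lists (rows, each gene drawn once, 3 genes not shown) in the 8 libraries (columns), as log2(CPM + 2) minus the mean of the gene over the 8 libraries, with colours limited at 5 in either direction. LT-HSC identity genes are above their mean in LT-HSC in most cells of the map, granule, lymphoid, plasma cell and monocyte genes in MPP3, and the plasma cell genes are highest in MPP3 replicate 3.

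Among genes of later neutrophil steps none passed the test. Of 20 secondary granule and mature neutrophil genes 7 had counts in enough libraries to be tested, and none passed (median log2 change 3.18). The count filter left out the other 13. The summed level of the list was 78.2 to 282 CPM in the LT-HSC libraries and 235 to 827 CPM in the MPP3 libraries. Its defining genes Ltf (lactoferrin) and Camp (cathelicidin) had no count in 7 libraries and 46.7 CPM and 18.5 CPM in MPP3 replicate 4. Ngp, Lcn2, Chil3, Cd177, Fcnb, Itgb2l and Ly6g were also highest in that library, but other members left out by the filter were not. Wfdc21 and Fcnb had no count in LT-HSC and had counts in all 4 MPP3 libraries. Wfdc21 was highest in MPP3 replicate 1, at 21.8 CPM. Mmp9 and Retnlg were highest in LT-HSC replicate 2, at 8.77 and 1.46 CPM, and Mmp8 in LT-HSC replicate 4, at 2.99 CPM. S100a8 was at 0.111, 10.8, 0 and 9.75 CPM in LT-HSC and at 60.8, 35.7, 10.5 and 167 CPM in MPP3, with MPP3 replicate 4 highest and with overlapping values. The part of MPP3 replicate 4 in the level of other genes was not tested beyond leaving out its recipient.

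Among 24 regulators of granulocyte and monocyte fate, 21 were tested, 2 rose and 1 fell, with a median log2 change of 0.03. Irf8, which directs progenitors to monocytes and dendritic cells, had counts in LT-HSC replicate 1 only, with 1.66, 0, 0 and 0 CPM in the 4 LT-HSC libraries, and 297, 82.8, 113 and 56.3 CPM in MPP3 (log2 change 9.26 ± 0.98, edgeR adjusted p = 0.00403). Irf4, a related factor that plasma cells also make, was at 0.332, 0, 0 and 0 CPM in LT-HSC and at 38.3, 17.1, 149 and 33.9 CPM in MPP3 (3 counts against 1441; adjusted p = 0.0137), and it did not pass when any 1 recipient was left out. MPP3 replicate 3, highest for Irf4, was also highest for immunoglobulin genes. Gfi1, a repressor needed for granulocytes, was at 12.4, 3.97, 0.162 and 3.3 CPM in LT-HSC and at 84.6, 61.9, 23 and 48.2 CPM in MPP3 (adjusted p = 0.0626). Cebpa, which opens the granulocyte-monocyte path, was at 0, 5.74, 0 and 0.157 CPM in LT-HSC and at 11.8, 3.8, 24.9 and 8.5 CPM in MPP3 (adjusted p = 0.358). Cebpe, the factor of the secondary granule, was at 0, 3.65, 0 and 0 CPM in LT-HSC and at 22.4, 5.03, 48.3 and 13.4 CPM in MPP3 (adjusted p = 0.218). Spi1, which encodes PU.1, was at 34.8, 17.6, 61.3 and 2.52 CPM in LT-HSC and at 175, 76.2, 64.2 and 71.3 CPM in MPP3 (adjusted p = 0.244). Of these 4 genes, only Cebpa had values that overlapped, and none passed the test.

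Monocyte genes moved in part. Of 30 monocyte, macrophage and dendritic cell genes 21 were tested and 3 rose (median log2 change 1.48), and the summed level was 325 to 711 CPM in LT-HSC and 946 to 1894 CPM in MPP3. Ly6c2, which encodes the Ly6C antigen of inflammatory monocytes, had 1 count in the 4 LT-HSC libraries together and 10492 in the MPP3 libraries (542, 309.6, 391 and 296 CPM; edgeR adjusted p = 0.000107). The ratio of the 2 levels was 11849, with a 95% counting interval from 2126 to 468062. Ly6c1, its close copy, was at 59.7, 39.9, 242 and 37.9 CPM in MPP3 (adjusted p = 0.00357), and reads of the 2 genes may have been shared between them. F13a1, coagulation factor XIII A of monocytes, was at 0, 0.104, 0 and 3.15 CPM in LT-HSC and at 223, 198, 234 and 132 CPM in MPP3 (log2 change 9.26 ± 1.30, adjusted p = 0.0138). Ccr2, the chemokine receptor by which monocytes leave marrow, was at 0.111, 0.835, 0.324 and 0 CPM in LT-HSC and at 81.2, 30.8, 64.6 and 43.2 CPM in MPP3 (log2 change 7.66 ± 1.18, adjusted p = 0.02). F13a1 did not pass without recipient 1 or 2, nor Ccr2 without 1, 3 or 4. The macrophage genes C1qa and C1qb had no count in any of the 8 libraries.

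In a list of receptors of cytokines, chemokines and growth factors, the genes that passed were chemokine receptors. Of 35 tested members of a list of 39, 2 rose and none fell, beside 0.813% and 0.553% of all tested genes. The median log2 change was 0.62. For 7 every MPP3 value lay above every LT-HSC value, and for 3 under it, beside 5.32% and 5.34% of all tested genes. Besides Ccr2, the other was Cxcr4, the receptor that holds cells in marrow through CXCL12, at 21.6, 20.8, 14.2 and 18.3 CPM in LT-HSC and at 211, 73.4, 177 and 104 CPM in MPP3 (log2 change 2.81 ± 0.48, edgeR adjusted p = 0.0296). The log2 change of Cxcr4 did not pass without any 1 of the 4 recipients and in pool 2 alone, with adjusted p from 0.0632 to 0.151 there. Csf1r, the M-CSF receptor, was at 2.43, 4.28, 0.324 and 2.67 CPM in LT-HSC and at 91.9, 26.7, 45.7 and 49.3 CPM in MPP3 (adjusted p = 0.0586). Csf3r, the G-CSF receptor, was at 85, 150.3, 79.7 and 106 CPM in LT-HSC and at 561, 243, 178 and 311 CPM in MPP3 (adjusted p = 0.106). Csf2rb, the shared beta chain of the GM-CSF, IL-3 and IL-5 receptors, was at 37.5, 3.44, 1.78 and 0.157 CPM in LT-HSC and at 164, 82.8, 76 and 148 CPM in MPP3 (adjusted p = 0.0725). All 3 had every MPP3 value above every LT-HSC value without passing.

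The list of LT-HSC identity genes had the most members lower in MPP3. It was also the longest list, and it too was chosen with earlier results of these data known. Of 45 tested members of a list of 53, 13 fell, beside 0.553% of all tested genes, and none rose. The median log2 change was -3.26. For 35 every MPP3 value lay under every LT-HSC value, beside 5.34% of all tested genes. Summed over the list, LT-HSC libraries held 7622 to 8401 CPM and MPP3 libraries 1031 to 2021 CPM. The groups did not overlap in this sum. With 1 recipient left out 5 to 8 members passed, and 7 did in pool 2 alone. With pool as a term beside the block 1 passed.

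Transcription factors made up many of the 13. Hlf, a leucine zipper factor that marks stem cells (ENSMUSG00000003949, chr11:90336536-90390895), was at 778, 1239.8, 994 and 800.3 CPM in LT-HSC and at 210.3, 319, 249.5 and 156 CPM in MPP3, still present there at a 4.14-fold lower level (log2 change -2.05 ± 0.21, edgeR adjusted p = 0.00357). Meis1 (ENSMUSG00000020160, chr11:18879817-19018985), a homeobox partner of HOX proteins, was at 478, 509, 749 and 507 CPM in LT-HSC and at 39, 109, 88 and 126 CPM in MPP3 (log2 change -2.73 ± 0.34, adjusted p = 0.00893). LT-HSC replicate 3 was above the other 3 for Meis1. Egr1, a zinc finger factor that restrains LT-HSC division and an immediate-early gene as well, was at 874, 840.3, 529 and 1247 CPM in LT-HSC and at 38.3, 131, 109 and 109 CPM in MPP3 (log2 change -3.23 ± 0.39, adjusted p = 0.00805). Gata2, Erg, Hoxb4, Prdm16 and Mllt3 also fell, with log2 changes from -6.86 (Prdm16) to -1.71 (Erg). Hoxb4 alone among the called members overlapped between the groups, at 65.1, 9.92, 183 and 76 CPM in LT-HSC and 9.39, 0.981, 28.5 and 7.94 CPM in MPP3, although it was lower in MPP3 in each recipient.

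The other called members of this list encode enzymes, a ligand and a cytoskeletal protein. Tgm2, transglutaminase 2, a cross-linking enzyme, was at 215, 124, 189.6 and 152 CPM in LT-HSC and at 0.433, 0, 0 and 0.139 CPM in MPP3, the smallest adjusted p of any gene that was lower in MPP3 (0.000664, edgeR; log2 change -10.18 ± 0.80). Fhl1, a LIM domain protein, had 1589 counts in LT-HSC and 1 in MPP3 (at 56.3, 59.2, 63.9 and 18.6 CPM in LT-HSC; adjusted p = 0.0122). The ratio of LT-HSC to MPP3 was 1407, with a 95% counting interval from 252 to 55608. Angpt1, the ligand of the receptor TIE2, was at 555, 634, 495 and 579.9 CPM in LT-HSC and at 49.1, 163, 117 and 65.1 CPM in MPP3 (log2 change -2.67 ± 0.34, adjusted p = 0.0102), and did not pass without recipient 4 or in pool 2 alone. Aldh1a1, a retinal dehydrogenase, had a log2 change of -3.26 ± 0.60.

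Several well-known stem cell genes separated the groups but did not pass. Mecom, which encodes the stem cell factor EVI1, was at 224, 163, 431 and 309 CPM in LT-HSC and at 6.5, 62.8, 62.3 and 4.18 CPM in MPP3 (edgeR adjusted p = 0.0679). Fgd5, a guanine exchange factor used as a stem cell reporter gene, was at 107, 17.5, 29.4 and 46.1 CPM in LT-HSC and at 0, 4.78, 1.5 and 4.74 CPM in MPP3 (adjusted p = 0.232). Robo4, a homing receptor, was at 98.6, 55, 92 and 35.2 CPM in LT-HSC and at 0, 5.27, 2.81 and 1.67 CPM in MPP3 (adjusted p = 0.0848). For all 3, every MPP3 value lay under every LT-HSC value. Ctnnal1, the source of the alpha-catulin reporter, was at 27.5, 23.5, 6.79 and 10.1 CPM in LT-HSC and at 0, 0, 2.25 and 0 CPM in MPP3. Hoxb5, another reporter gene of LT-HSC, was at 33.4, 31.6, 5.5 and 1.26 CPM in LT-HSC and at 0, 1.72, 0 and 0.836 CPM in MPP3, where LT-HSC replicate 4 lay under the highest MPP3 value. Cdkn1c, the cell cycle inhibitor p57, was at 3.76, 10.6, 5.34 and 11.8 CPM in LT-HSC and had no count in MPP3, at least 17.7-fold lower there at 3 counts per library (adjusted p = 0.131).

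Megakaryocyte and platelet genes, some of which LT-HSC express, leaned to LT-HSC. Of 28, 19 were tested, 2 fell, none rose, and the median log2 change was -2.82. The summed level was 1883 to 2741 CPM in LT-HSC and 550 to 927 CPM in MPP3. F2r, the thrombin receptor PAR1, was at 356, 335, 300.4 and 185 CPM in LT-HSC and at 13.3, 42.7, 47 and 7.66 CPM in MPP3 (log2 change -3.73 ± 0.47, edgeR adjusted p = 0.0102). Cavin2, a caveolar coat protein of platelets, was at 16.6, 106, 37 and 4.41 CPM in LT-HSC and had no count in MPP3 (at least 92.1-fold lower, adjusted p = 0.0382). Pf4, platelet factor 4, was at 30.6, 22.3, 14.4 and 3.93 CPM in LT-HSC and also had no count in MPP3 (adjusted p = 0.0993). Vwf, von Willebrand factor, which marks platelet-biased stem cells, was at 239.9, 156, 101 and 82.6 CPM in LT-HSC and at 52, 47.1, 48.5 and 56 CPM in MPP3 (adjusted p = 0.178). Itga2b, which encodes CD41, was at 19.3, 33.6, 22.8 and 107 CPM in LT-HSC, highest in replicate 4, and at 9.68, 7.61, 1.68 and 3.2 CPM in MPP3 (adjusted p = 0.205). The platelet genes Gp6 and Tubb1 had no count in any of the 8 libraries. Other members left out by the count filter did have counts. Gp9 was at 33.3, 9.39, 0.485 and 0.157 CPM in LT-HSC and at 0, 0.491, 0 and 0 CPM in MPP3. Ppbp, at 0.332, 12, 2.43 and 0 CPM in LT-HSC, had no count in MPP3, nor had Treml1 and Gp1bb, which reached 6.45 and 4.56 CPM in LT-HSC. Gng11 went the other way, highest in MPP3 replicate 4 at 6.27 CPM. Neither call of this list was kept in pool 2 alone, and Cavin2 did not pass when any 1 recipient was left out.

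Erythroid genes gave 1 call. Of 28, 19 were tested and 1 fell (median log2 change -1.71). The summed level overlapped, at 781 to 1945 CPM in LT-HSC and 491 to 940 CPM in MPP3. Car2, carbonic anhydrase 2, was at 336, 461, 395 and 284 CPM in LT-HSC and at 111, 174, 96.8 and 52.8 CPM in MPP3 (log2 change -1.87 ± 0.29, edgeR adjusted p = 0.0203). Car2 did not pass when any 1 recipient was left out or in pool 2 alone. The count filter, which asks for counts in enough libraries, left out some members, so these have no part in the calls or the median. Of these, Car1, carbonic anhydrase 1 of red cell precursors, was at 0, 0.209, 0.162 and 0.157 CPM in LT-HSC and at 1.16, 88.1, 130.1 and 119 CPM in MPP3. Klf1, the erythroid factor, had no count in LT-HSC and 0, 8.46, 14.4 and 5.43 CPM in MPP3. Both were higher in MPP3 replicates 2, 3 and 4 than in any LT-HSC library. Of 20 endothelial and stromal genes 8 were tested, and only Angpt1, described above, passed. Members left out by the count filter went both ways. Cxcl12 was at 0.221, 0, 0 and 0 CPM in LT-HSC and at 32.5, 0, 0 and 49 CPM in MPP3. Col1a2 was at 17.4, 6.37, 11.6 and 0 CPM in LT-HSC and at 1.01, 0, 0 and 0.836 CPM in MPP3. Kdr was highest in LT-HSC replicate 2 (13 CPM) and Cdh5 in MPP3 replicate 3 (13.5 CPM). Pdgfra, Bglap and Bglap2 had no count in the 8 libraries.

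Some lymphoid genes were higher in MPP3, and none was called lower. Of 34 lymphoid progenitor, B and T cell genes, 24 were tested, 6 rose and none fell, with a median log2 change of 5.55, or 5.18 with genes at 0 in one group set to their bound. The summed level was 744 to 993 CPM in LT-HSC and 1996 to 3806 CPM in MPP3. Of the 6, Nkg7 is also made by myeloid cells. Cd79a, Igll1 and Ighm belong to B cells and their progenitors. Cd79a, a chain of the B cell receptor complex, was at 0, 0, 0 and 4.72 CPM in LT-HSC and at 65.1, 38.2, 87.2 and 78.7 CPM in MPP3 (edgeR adjusted p = 0.0434). Igll1, the surrogate light chain lambda5 of B cell progenitors, had no count in LT-HSC and 39.7, 27.5, 41.2 and 29 CPM in MPP3, at least 85.7-fold higher (adjusted p = 0.041). All 4 MPP3 libraries held both Cd79a and Igll1. Dntt, the template-free polymerase of early lymphoid cells, had no count in LT-HSC and 9.39, 5.15, 37.2 and 45.6 CPM in MPP3 (adjusted p = 0.0691), and Rag1, the recombinase, was at 0, 0.626, 0 and 0 CPM in LT-HSC and at 28, 5.52, 31.6 and 18.7 CPM in MPP3 (adjusted p = 0.119). Ebf1, the B lineage factor, was at 18.9, 25.9, 40.1 and 75.5 CPM in LT-HSC and at 114, 148, 183 and 140.1 CPM in MPP3 (adjusted p = 0.0691). The T cell and cytotoxic genes Cd3e, Cd3g and Gzmb had no count in any of the 8 libraries. Other members left out by the count filter did have counts. Lck, also a T cell gene, was at 0.221, 1.25, 0 and 0 CPM in LT-HSC and at 0.289, 1.96, 0.562 and 2.65 CPM in MPP3. Cd4 and Ccr7 had no count in LT-HSC. In MPP3 they were at 0.144, 0.859, 0 and 1.39 CPM and at 23, 4.78, 0 and 2.79 CPM. Without recipient 1, 2, 3 or 4, 2, 2, 3 or 4 of the list passed, and 3 did with scaling by library totals.

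Plasma cell genes held the smallest adjusted p of all. Of 20 on the list 10 were tested, 6 rose and none fell (median log2 change 9.63, or 9.10 with bounds), and the summed level was 112 to 284 CPM in LT-HSC and 2011 to 23940 CPM in MPP3. Jchain, the chain that joins IgA and IgM into polymers (ENSMUSG00000067149, chr5:88519809-88527891), had 1 count in the 4 LT-HSC libraries and 17192 in the MPP3 libraries, where it was at 540.4, 449.6, 1604 and 169.8 CPM (edgeR adjusted p = 4.88e-05). The ratio was 19416, with a 95% counting interval from 3484 to 766930.0. Igha, the IgA heavy chain, was at 0, 0.313, 0.647 and 1.1 CPM in LT-HSC and at 2347, 2375, 12558 and 1044 CPM in MPP3 (log2 change 12.75 ± 0.89, adjusted p = 0.000414). MPP3 replicate 3 was several fold above the others for both genes and replicate 4 the lowest. Pou2af1, the B cell coactivator OBF-1, was at 99.2, 87.7, 266 and 85 CPM in MPP3 and had 1 count in LT-HSC (adjusted p = 0.000664). Igkc, the kappa light chain, was at 0.442, 0.209, 0.485 and 5.19 CPM in LT-HSC and at 1828, 1253, 6872 and 254 CPM in MPP3 (adjusted p = 0.0252), and Ighm, the IgM heavy chain, at 1.33, 0.522, 0.324 and 6.77 CPM and 1865, 228, 1999 and 266 CPM (adjusted p = 0.0149). Igkv1-110, a kappa variable segment, ranged from 3.48 to 1669 CPM among the MPP3 libraries and had no count in LT-HSC. Immunoglobulin genes together took 0.222% to 2.52% of counts in MPP3, and 0.000876% on average in LT-HSC. The other 9 matched members were left out by the count filter. Sdc1, which encodes CD138, had no count in LT-HSC and was at 0, 0.123, 0.562 and 0 CPM in MPP3. Tnfrsf17 (BCMA) had counts in MPP3 replicate 3 only. Mzb1, a chaperone of antibody secretion, was at 0, 0, 0 and 0.157 CPM in LT-HSC and at 0, 6.26, 22.5 and 6.69 CPM in MPP3. Derl3, of the degradation path of the endoplasmic reticulum, was at 0.884, 0, 0 and 0 CPM in LT-HSC and at 0.867, 21.7, 26.4 and 0 CPM in MPP3. Slamf7, a surface receptor of plasma cells, had no count in LT-HSC and 9.82, 0.736, 8.42 and 7.38 CPM in MPP3, and Ighg2b, an IgG heavy chain, none in LT-HSC and 0, 0, 89.1 and 8.92 CPM in MPP3. Fkbp11, also on the list, was at 0.332, 0, 0 and 0 CPM in LT-HSC and at 1.01, 1.35, 1.31 and 2.37 CPM in MPP3. Of these 9 genes only Slamf7 and Fkbp11 had counts in all 4 MPP3 libraries, and apart from Fkbp11 those named were uneven among them. Xbp1 and Prdm1, factors of plasma cells that other cells also make, were tested and had log2 changes of 0.37 and 0.68. Immunoglobulin segments share sequence, so counts of single segments are uncertain. Without recipient 1, 2, 3 or 4, 3, 3, 4 or 5 of the list passed, and 3 did with pool as a term beside the block. The part of other cells in these values was not tested.

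Genes of the dividing cell were compared in 3 lists. Of 50 mitotic (G2 and M phase) genes 49 had a log2 change above 0 (beside 50% of all tested genes) and the median was 1.35, but only Ube2c, the ubiquitin carrier of the anaphase promoting complex, passed. It was at 37.7, 98.1, 51.3 and 39.6 CPM in LT-HSC and at 560.0, 464, 263 and 401 CPM in MPP3 (log2 change 2.95 ± 0.37, edgeR adjusted p = 0.00909). For 19 of the 50 every MPP3 value lay above every LT-HSC value. The list summed to 1706 to 4067 CPM in LT-HSC, where replicate 1 was the lowest, and to 6454 to 8559 CPM in MPP3. Ccnb1 (cyclin B1) was at 34.6, 27.7, 18.3 and 17.6 CPM in LT-HSC and at 132, 62.6, 133 and 107 CPM in MPP3, and Top2a (topoisomerase II alpha) at 219, 439.7, 159 and 390.0 CPM and 751, 683, 802 and 698 CPM, with adjusted p of 0.0856 and 0.0868. Mki67, the proliferation marker Ki-67, was at 339, 796, 1525 and 998 CPM in LT-HSC and at 1861, 1573, 2019.9 and 1926 CPM in MPP3. Values did not overlap for these 3 genes. Of 50 DNA replication and S phase genes none passed, and the median was 0.28.

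Among 22 tested cyclin-dependent kinase inhibitors, cyclins and pocket proteins, 1 rose and none fell. Cdk6, the kinase whose low level delays the exit of LT-HSC from quiescence, was at 187, 264, 255 and 261 CPM in LT-HSC and at 671, 783, 694 and 650.5 CPM in MPP3 (log2 change 1.54 ± 0.22, edgeR adjusted p = 0.0141). That is a rise of 2.91-fold, which passed in pool 2 alone but not when any 1 recipient was left out. Ccnd2 (cyclin D2) was at 474, 597, 329 and 211 CPM in LT-HSC and at 158, 88, 159 and 214 CPM in MPP3, and Cdkn1b (p27) at 71.5, 51.8, 117 and 104 CPM and 32.8, 61.6, 55.8 and 32.5 CPM, both with overlapping values. Txnip, a redox regulator that restrains stem cell division, was at 272, 529.7, 221 and 498 CPM in LT-HSC and at 125, 129.7, 92.1 and 54.3 CPM in MPP3 (adjusted p = 0.0586).

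Energy and growth genes gave no call. None of 28 glycolysis and hypoxia genes (median log2 change 0.50), 36 nuclear respiratory chain and TCA cycle genes (0.44) or 40 ribosome biogenesis genes (0.33) passed. Of the 36 respiratory genes 31 had a log2 change above 0. Pgam1, a glycolytic mutase, was at 80.6, 61.7, 24.6 and 13.1 CPM in LT-HSC and at 124, 215, 104 and 177 CPM in MPP3 (edgeR adjusted p = 0.127).

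Interferon response genes leaned to LT-HSC. Of 45 tested, 2 fell, none rose, 38 had a log2 change below 0, and the median was -0.85. Ifitm3, which blocks virus entry, was at 606, 394, 346 and 382 CPM in LT-HSC and at 201, 104, 99.6 and 122 CPM in MPP3 (log2 change -1.74 ± 0.24, edgeR adjusted p = 0.0138). Gbp7, a guanylate-binding protein, was at 244, 258, 179 and 193 CPM in LT-HSC and at 57.5, 97.8, 66.1 and 56.1 CPM in MPP3 (log2 change -1.68 ± 0.31, adjusted p = 0.0414). Neither call was kept when any 1 recipient was left out or in pool 2 alone.

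Immediate-early genes, which rise fast on stimulation and on handling of cells, gave 2 calls among 27 tested, both lower in MPP3: Egr1, given above, and Fos. Fos was at 396, 628, 841 and 441 CPM in LT-HSC and at 62.4, 226, 254 and 183 CPM in MPP3 (log2 change -1.78 ± 0.29, edgeR adjusted p = 0.0252). Fos did not pass when any 1 recipient was left out, without the block or in pool 2 alone. The median of the list was -0.83. Dusp1, a phosphatase of the same response, was at 507, 447, 516 and 342 CPM in LT-HSC and at 61.4, 132, 327 and 171 CPM in MPP3 (adjusted p = 0.115).

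TNF receptors are named in the title of the study. Of 30 tested genes of TNF, its receptors and their proximal signalling none passed, and the median log2 change was -0.07. Tnfrsf1a (TNFR1) was at 21.9, 37.4, 38.5 and 34.6 CPM in LT-HSC and at 12.7, 72.1, 28.8 and 64.6 CPM in MPP3 (log2 change 0.17 ± 0.60). Tnfrsf1b (TNFR2) was at 31.2, 22.8, 20.1 and 118 CPM in LT-HSC, where replicate 4 was the highest, and at 39.7, 25, 18.2 and 63.7 CPM in MPP3 (log2 change -0.13 ± 0.52). Both receptors were thus present in both cell types, at levels that overlapped. Tnf itself was at 2.87, 12.5, 0.162 and 0 CPM in LT-HSC and at 0.433, 0, 3.74 and 0.557 CPM in MPP3, and was left out by the count filter. Nfkbiz, an NF-kB target and cofactor, was at 72.3, 141, 177 and 74.4 CPM in LT-HSC and at 59.2, 65.6, 11 and 39.6 CPM in MPP3 (edgeR adjusted p = 0.406).

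Genes of DNA methylation and clonal haematopoiesis gave no call among 19 tested (median 0.20). Dnmt3a, the methyltransferase that is intact in this control marrow, was at 136, 70.5, 90.3 and 87.6 CPM in LT-HSC and at 238, 134, 48.3 and 149 CPM in MPP3 (log2 change 0.42 ± 0.41). Tet2, which oxidises methylcytosine, was at 72.5, 117, 28.6 and 93.5 CPM in LT-HSC and at 273, 262, 173 and 137 CPM in MPP3 without overlap (edgeR adjusted p = 0.125).

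Adhesion and niche genes moved both ways, with 3 of 28 higher and 2 lower in MPP3 and a median log2 change of 0.18. Besides Cxcr4 and Tgm2, called members included Itgal and St3gal1. Itgal, the alpha chain of the integrin LFA-1, was at 9.84, 3.03, 5.82 and 4.25 CPM in LT-HSC and at 37, 149, 213 and 90.7 CPM in MPP3 (log2 change 4.35 ± 0.76, edgeR adjusted p = 0.0318). St3gal1, a sialyltransferase, was at 591, 417, 449 and 459 CPM in LT-HSC and at 29.5, 209, 63.3 and 81.8 CPM in MPP3 (log2 change -2.65 ± 0.50, adjusted p = 0.0436). Itgal did not pass without recipient 2, 3 or 4, nor St3gal1 when any 1 was left out, nor either of them in pool 2 alone. Selp, which encodes P-selectin, was at 104, 52.5, 189 and 272 CPM in LT-HSC and at 3.03, 28.6, 29.8 and 56.8 CPM in MPP3, with overlap.

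**Figure D4:**
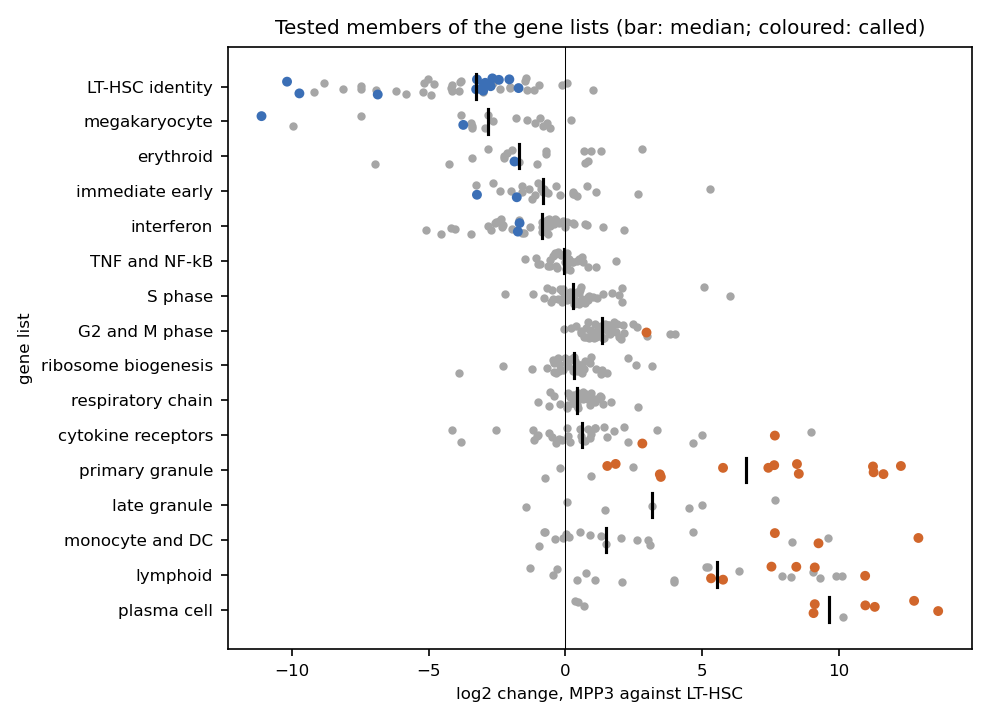
Log2 change (MPP3 against LT-HSC, x axis) of every tested member of 16 gene lists (rows), with called genes coloured (orange higher and blue lower in MPP3) and the median of each list as a black bar. Medians run from -3.26 for LT-HSC identity to 9.63 for plasma cell genes, and the TNF and S phase lists lie near 0.

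Some of the strongest changes fell outside all lists. Atp8b4, a lipid flippase of leukocytes, was at 0.221, 0, 0.324 and 1.26 CPM in LT-HSC and at 931, 525, 415 and 532 CPM in MPP3 (log2 change 10.62 ± 0.78, edgeR adjusted p = 0.00053). Rab44, a large Rab GTPase of granulocytes and mast cells, had no count in LT-HSC and 241, 153, 148 and 185 CPM in MPP3, at least 454-fold higher (adjusted p = 0.00357). Chdh, choline dehydrogenase, was at 0, 0, 0.162 and 0.472 CPM in LT-HSC and at 207, 73.2, 125 and 148 CPM in MPP3 (adjusted p = 0.00216); it overlaps Cacna1d on the other strand, which also rose, and the 2 cannot be told apart without strand. Each of these genes was close to absent in LT-HSC and present in all 4 MPP3 libraries.

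Among the genes that were lower in MPP3, Msi2, an RNA-binding protein that maintains stem cells, was at 883, 1329, 1323 and 1143 CPM in LT-HSC and at 279, 455, 258 and 196 CPM in MPP3 (log2 change -2.03 ± 0.25, edgeR adjusted p = 0.00805). Grb10, an imprinted adaptor of growth factor receptors, was at 128, 190.5, 148 and 195 CPM in LT-HSC and at 16.5, 18.9, 10.5 and 10.9 CPM in MPP3 (log2 change -3.57 ± 0.43, adjusted p = 0.00805). Mmrn1, multimerin 1 of platelets and endothelium, was at 455, 492, 580.2 and 260.4 CPM in LT-HSC and at 8.67, 2.09, 1.12 and 14.6 CPM in MPP3 (log2 change -6.55 ± 0.83, adjusted p = 0.0102). None of the 3 overlapped between the groups. Tbxas1, thromboxane synthase, was at 214, 107, 445 and 161 CPM in LT-HSC and at 18.9, 18, 52.6 and 36.8 CPM in MPP3 (adjusted p = 0.0119). Tox, an HMG box factor known from T cells, was at 48.6, 105, 61.3 and 44.1 CPM in LT-HSC and at 2.46, 2.33, 2.06 and 1.81 CPM in MPP3 (log2 change -4.81 ± 0.68, adjusted p = 0.0141). Soga1 was at 124, 123, 239 and 145 CPM in LT-HSC and at 15.7, 17.4, 22.3 and 7.8 CPM in MPP3 (adjusted p = 0.0119).

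The same cell types from aged recipients were used to ask whether the difference depended on the recipient's age. In aged recipients of control marrow, 70 of 16309 genes differed between MPP3 and LT-HSC (0.429%) in a fit of all 28 libraries. Of the 97 genes higher in young MPP3, 95 had the same direction there and 17 were called, and of the 66 lower genes 64 and 14. The difference of the cell type differences, young minus aged control, passed for 0 genes (0%) by edgeR, with an unadjusted p under 0.05 for 1479 (9.07%), while DESeq2 called 296. The 3 genes with the smallest p were Pik3cd, Nkg7 and Tcf19, with edgeR adjusted p of 0.471 for Pik3cd and 0.471 for Nkg7.

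Nkg7 shows what such a gene looked like. In young recipients it was at 11, 2.77, 2.02 and 6.29 CPM in LT-HSC and 371, 197, 279.5 and 207 CPM in MPP3, scaled over all 28 libraries. In aged control recipients it was at 50.5, 228 and 35.1 CPM in the 3 LT-HSC libraries and 121, 97.5, 185 and 208 CPM in the 4 MPP3 libraries, so the 2 cell types overlapped there. The difference of differences was 5.02 ± 1.11 (SE, log2) and did not pass. Pik3cd, the leukocyte PI3-kinase subunit, had the opposite order: 64.5, 52.9, 50.1 and 79.3 CPM in young LT-HSC and 46.3, 65, 60 and 74 CPM in young MPP3, against 3.8, 7.48 and 13.2 CPM and 50, 106, 80.6 and 81.3 CPM in aged recipients (difference -3.29 ± 0.72).

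Aged recipients of Dnmt3a-mutant marrow differed from the young controls in both age and donor genotype, which cannot be told apart here. There 331 genes differed between MPP3 and LT-HSC (2.03%). Of the young calls, 87 of 97 and 65 of 66 had the same direction, and 22 and 32 were called. The difference of the cell type differences passed for 1 gene (0.00613%; 9.94% had an unadjusted p under 0.05, and DESeq2 called 336), Hdc, which encodes the enzyme that makes histamine in basophils, mast cells and myeloid progenitors. Hdc was at 0, 0.307, 0 and 0.153 CPM in young LT-HSC and 83.3, 51.4, 11.2 and 69.8 CPM in young MPP3, and at 7.57, 8.61, 36.9 and 126 CPM and 14.6, 16, 46.1 and 94.5 CPM in aged mutant recipients. The LT-HSC libraries of the mutant thus held Hdc at levels that overlapped with MPP3, in contrast to the young controls. The difference was 8.68 ± 1.43 (edgeR adjusted p = 0.0384), and it did not pass without any 1 of the 4 young recipients. Il10ra, the interleukin-10 receptor chain, and Rab44 followed by p, each with an adjusted p of 0.118. Rab44 was at 0, 0, 43.4 and 34.9 CPM in the aged mutant LT-HSC libraries, whose upper values overlapped with those of MPP3 there, at 31.1, 54, 165 and 114 CPM.

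By list and in the same fit of all 28 libraries with no recipient block, the median log2 change of primary granule genes was 5.35 in young recipients of control marrow, 3.91 in aged recipients of control marrow and 2.17 in aged recipients of mutant marrow. That of LT-HSC identity genes was -3.03, -2.39 and -2.90, and that of plasma cell genes 9.89, 4.02 and 2.54. In all groups the members were those that had passed the count filter in the young libraries of control marrow. The lists had also been chosen with earlier results of these data known. Both choices can favour a larger median in young recipients, so these medians cannot decide whether the cell type difference was smaller in aged recipients. The difference of the cell type differences was called for no member of these lists in either contrast.

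**Figure D5:**
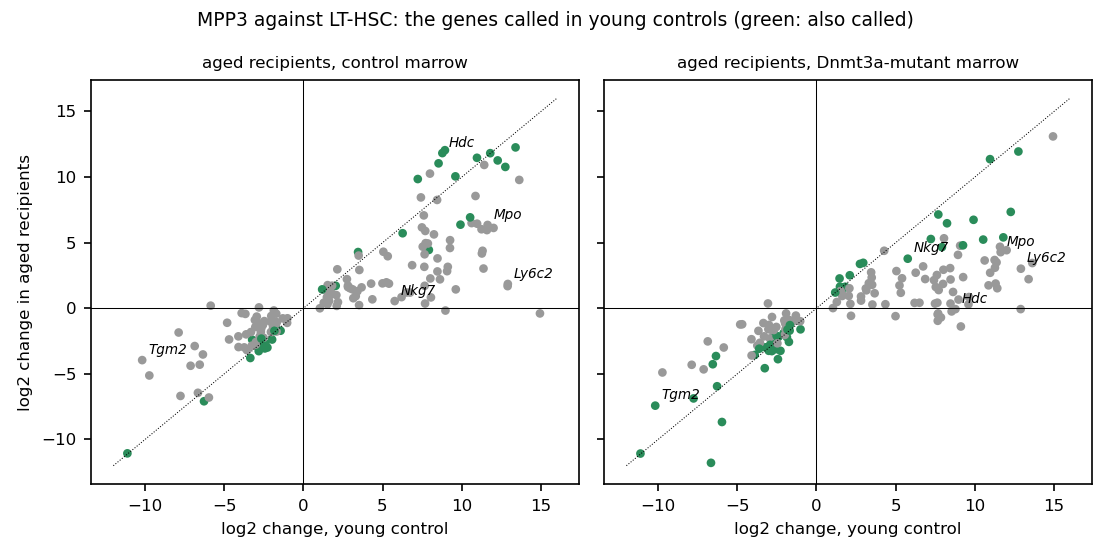
Log2 change (MPP3 against LT-HSC) of the 163 genes called in young recipients of control marrow (x axis) and the same change in aged recipients (y axis) of control marrow (left) and Dnmt3a-mutant marrow (right), with genes also called there in green and equal change as a dotted line. The x axis is from the paired fit of 8 libraries and the y axis from the fit of all 28, and the genes were chosen by their change on the x axis; 159 of the 163 keep their direction on the left and 152 on the right, and Hdc, at 8.78 on the x axis, is at 11.83 on the left and -0.06 on the right.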

How the data were processed

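The deposited table holds whole-number read counts for 38924 Ensembl genes in 28 libraries. The submitters' processing notes name Bowtie2 2.2.0, RSEM 1.2.12, SAMtools 0.1.18, edgeR 3.5.3 and GRCm38, and how the counts were rounded, the annotation release and the strand setting are not given in the sources used here. Symbols and positions came from GENCODE M21 (GRCm38); 37607 IDs had a symbol (96.6%), holding 99.2% of counts. Promoter windows came from RefSeq (GRCm38.p6).

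Counts of the 8 libraries were filtered (filterByExpr), scaled by TMM and tested with edgeR 4.0.16 in R 4.3.3 (robust quasi-likelihood fit, recipient plus cell type, Benjamini-Hochberg, threshold 0.05). The spread was wide, with a common biological coefficient of variation of 0.812 and 3 residual degrees of freedom. The titles give the same recipient numbers for both cell types, so the recipient was kept as a block. Deviations of libraries from the same recipient correlated at -0.0303 to 0.00811. The contrasts with aged recipients used all 28 libraries with 1 coefficient per group. The lowest chi-square per gene between libraries of a group was 62.5, so no library was a repeat of another. The script was tested on simulated data.

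Of 722 list entries (656 symbols, 23 lists), 2 were found through a synonym and 3 were not matched. The members and lists were chosen with earlier results of these data known. Named genes are the surface genes, the 15 per direction with the smallest adjusted p and no overlap, up to 6 called members per list and direction, and 3 per contrast. Other genes are given by their values or, like Mpo, Gata2, Erg, Hoxb4, Prdm16, Mllt3, Aldh1a1, Plac8, Igsf6, Calr, Hp, Prss57, Gstm1, Gm11505 and Cacna1d, were named after their values were seen. A fold against a group at 0 uses a floor of 3 counts per library; intervals and floors cover counting error only. Alternatives used DESeq2 1.42.0, limma 3.58.1 (voom), other scalings and filters, no block, the inferred pools, and each recipient left out. Some genes are not reported here.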

Additional observations from a re-analysis of the deposited data

Results flagged for a closer look

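In 27 of 201 groups of 4 libraries (13.4%), 1 library stood further from the other 3 than Dixon's criterion allows. The criterion flags about 1 in 20 groups when values are normally distributed. It was applied here to CPM without a log, which are skewed near 0. For Cd48, Irf8, Rag1, Cebpe and Ctnnal1 the flag was 1 value beside 3 at 0. The share of 13.4% therefore cannot show an excess of libraries that stand apart. The values below are CPM of the library that stood apart. Among the LT-HSC libraries it was the highest for Cd48 (10.6), Kit (1209), Itga2b (107), Irf8 (1.66), Meis1 (749), Clec12a (8.65), Tnfrsf1b (118), Csf2rb (37.5) and Oasl2 (321). It was also the highest there for the myeloid factors Cebpa (5.74) and Cebpe (3.65), for the monocyte gene F13a1 (3.15), and for the B lineage genes Ighm (6.77), Igkc (5.19), Cd79a (4.72) and Rag1 (0.626). The lowest LT-HSC library stood apart for Fhl1 (18.6) and Cdk6 (187).

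Among the MPP3 libraries the highest stood apart for Procr (3.61), Ctnnal1 (2.25), Ly6c1 (242), Clec12a (633), Spi1 (175) and S100a9 (110.3), and for the plasma cell genes Igha (12558), Pou2af1 (266) and Irf4 (149), which were all highest in replicate 3.

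The cell type difference of Hdc was larger in young recipients of control marrow than in aged recipients of mutant marrow by 8.68 on the log2 scale (edgeR adjusted p = 0.0384), as described in the report.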

How the results depend on the processing

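All 163 called genes that could be tested kept their direction under every alternative. Nearly all had no overlap between the groups, so refits of the same libraries could hardly turn them. The number of calls varied. DESeq2 gave 1262, voom 306, no filter on low counts 325, and the fit with no replicate block 305, which ignores the pairing by recipient. Pool 2 alone gave 92, pool as a covariate with the replicate block 16, and leaving out 1 recipient 38 to 61. For the contrasts with aged recipients, DESeq2 called 296 genes against aged control recipients and 336 against aged mutant recipients, and leaving out 1 young recipient gave 0 and 0. Of 106 named genes 51 were called, and 11 of these kept the call under every alternative that left out no recipient. No called gene reversed. Among those not called, leaving out 1 recipient moved the log2 change of Cd27 between -0.058 (without replicate 3) and 0.69, of Tnfrsf1a between -0.10 (without replicate 2; -0.089 without replicate 4) and 0.49, of Tnfrsf1b between -0.30 and 0.12 (without replicate 4) and of Pik3cd between -0.13 and 0.14 (without replicate 1). With pool as a covariate and the replicate block, Dnmt3a was at -0.067 and Pik3cd at 0.061. The cause was not tested. A gene at 0 may be present below 3 counts per library.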

Other observations

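Further gene groups were put together after their values were seen, and are given as values only. All 14 endoplasmic reticulum chaperone genes had a log2 change above 0 (median 1.47), and 4 rose in MPP3 by edgeR: Hspa5 (BiP; 1.49), Hsp90b1 (GRP94; 1.51), Calr (calreticulin; 1.84) and P4hb (protein disulfide isomerase; 1.46). Plasma cell genes were also higher in MPP3, and their part in these values was not tested. The 13 mitochondrial messenger RNAs were all above 0 (median 0.97), and mt-Nd1 (1.29, edgeR adjusted p = 0.0413) and mt-Nd4 (1.04, adjusted p = 0.0438) rose, although the values of both overlapped between the groups. mt-Nd1 was at 802, 470.4, 1975 and 1103 CPM in LT-HSC and at 2596, 1762, 3191 and 1998 CPM in MPP3. The mitochondrial share of counts was 14.9% and 14.7% in the LT-HSC libraries of pool 1, 24.9% and 21.0% in those of pool 2, and 22.0% to 27.8% in MPP3, all in pool 2.

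Of 13 genes of lysosomes and granule traffic 4 rose (median 0.60): Lyst, the Chediak-Higashi protein (2.18), Ap3s1, an adaptor subunit (5.40), Arsb, arylsulfatase B (3.12), and Rab44. Of 13 sphingolipid genes, Cers6 (ceramide synthase 6; 2.75) and Sgms2 (sphingomyelin synthase 2; 6.74) rose, while Sgms1, the synthase of the Golgi, had a log2 change of -2.40 and fell. Of 8 haem synthesis genes Alas1, the housekeeping first enzyme, rose (6.27).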
